A study of Rattus norvegicus with 12 samples.

Results

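MiR-146a, miR-146b and miR-155, microRNAs (miRNAs) induced by the inflammatory transcription factor NF-kB, were followed in the aorta of spontaneously hypertensive rats (SHR), a strain in which blood pressure rises by inheritance. Every entry of the deposited table named for one of these 3 hairpins was taken, whatever its arm, which gave 6 mature miRNAs of 641: the 5p arms rno-miR-146a-5p, rno-miR-146b-5p and rno-miR-155-5p, and the 3p arm of each hairpin. All samples were aortas of female SHR, 6 labelled as given saline (control) and 6 with the treatment label EWH. The labels do not spell EWH out, and the title of the series speaks of peptides derived from egg white. The sources used here give no age, dose or length of treatment. The labels do not tie each sample to its own animal, so the p-values below reflect the spread between samples, which could be technical. The question put by the design was whether aortic miRNAs differ between the EWH and control groups.

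NF-kB is switched on by Toll-like receptors and by the receptors of interleukin-1 and tumour necrosis factor, and in the vessel wall it drives the adhesion molecules and cytokines of inflammation. MiR-146a and miR-146b, made from separate genes, are brakes on that pathway, since they repress the adaptors Irak1 and Traf6 that lie between these receptors and NF-kB. MiR-155, cut from the non-coding transcript Mir155hg (Bic), is abundant in activated macrophages and lymphocytes, represses the inhibitors Socs1 and Inpp5d (SHIP), and in vascular cells is known for targeting the angiotensin II type 1 receptor.

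The mature sequences below show which members can act on the same targets, because a miRNA pairs with its targets mainly through its seed. RefSeq's table for the assembly GRCr8 held all 6, and capitals mark the seed, bases 2 to 8 from the 5′ end.
miR-146a-5p: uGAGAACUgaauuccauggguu
miR-146b-5p: uGAGAACUgaauuccauaggcugu
miR-155-5p: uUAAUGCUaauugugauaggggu
miR-146a-3p: aCCUGUGAaguucaguucuuu
miR-146b-3p: cCUAGGGAcucaguucuggug
miR-155-3p: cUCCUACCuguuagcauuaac
The 5p arms of miR-146a and miR-146b shared the seed GAGAACU, and no other mature rat miRNA of that table had it. The remaining 4 arms each had a seed found in no other entry. Counted from the 5′ end of the miR-146a-5p sequence, the pair was identical over the first 17 bases and differed by G18A and U21C, and miR-146b-5p was longer by 2 bases. Reads that end before the first difference fit both, and how the authors assigned reads with more than 1 match is not stated in the labels, so their separation is uncertain to that extent. No other mature rat miRNA of the table began with the same 17 bases as miR-155-5p.

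The hairpins are printed to show where each arm lies, with the 5p and then the 3p arm in capitals.
miR-146a: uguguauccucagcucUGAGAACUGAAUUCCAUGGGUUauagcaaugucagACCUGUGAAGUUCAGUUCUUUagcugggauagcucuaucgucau
miR-146b: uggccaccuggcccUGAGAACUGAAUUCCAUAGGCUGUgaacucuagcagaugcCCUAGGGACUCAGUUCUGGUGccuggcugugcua
miR-155: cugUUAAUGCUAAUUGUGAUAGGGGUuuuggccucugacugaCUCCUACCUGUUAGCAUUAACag
In GRCr8 the miR-146a hairpin lay at chr10:28349996-28350090 on the minus strand, the miR-146b hairpin at chr1:255144860-255144947 on the plus strand and the miR-155 hairpin at chr11:37261114-37261178 on the plus strand. In RefSeq's gene table of that assembly the miR-155 hairpin overlapped the long non-coding RNA gene Mir155hg, the miR-146a hairpin overlapped an uncharacterised long non-coding RNA gene, LOC134480673, with Pttg1 next to it, and the miR-146b hairpin overlapped the protein-coding gene C1h10orf95, between Cuedc2 and Mfsd13a. The table does not say whether these positions are exonic or intronic. The deposited file gives names without coordinates, and its build (rn6, per the submitters' processing notes) is another than GRCr8.

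Levels are given as reads-per-million (rpm) values, each a whole number of reads over a library's total of 23887799 to 24772944 reads, of which 76.4% to 80.6% fell in listed miRNAs. A read was worth 0.0404 to 0.0419 rpm, and reads without molecular identifiers are not independent molecules, so every interval on reads covers counting error only. The aorta label was checked against markers. MiR-143-3p, abundant in smooth muscle, read 330147 to 426996 rpm, and the endothelial miR-126a-3p read 3256 to 12218 rpm (control 1 highest). Markers of other cell types were present at lower levels. The most abundant tested of each list were miR-150-5p of leukocytes (60.6 to 209 rpm), miR-486 of erythrocytes (61.4 to 288 rpm), miR-203a-3p of epithelium (33.6 to 572 rpm), miR-1-3p of skeletal and cardiac muscle (201 to 1216 rpm) and miR-9a-5p of neurons and glia (39.6 to 490 rpm). EWH 3 and EWH 4 stood apart from the other 10 libraries along principal component 1 of all tested miRNAs (11.97 and 16.2, the others −7.94 to 4.94). The 5p fold changes, the ratio of the miR-146 5p arms and the count called are therefore also given without them.

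The 3 hairpins were read almost wholly from their 5p arms, with miR-155-5p well below both miR-146 arms. Over the 12 libraries rno-miR-146a-5p averaged 468 ± 134 rpm, rno-miR-146b-5p 366 ± 93.1 rpm and rno-miR-155-5p 52.6 ± 10.8 rpm (SD, n = 12 each), which placed them 53rd, 62nd and 111th in mean level among the 641 entries. The ranges of miR-146a-5p (329 to 730 rpm) and miR-146b-5p (240 to 610 rpm) overlapped. Read within libraries, miR-146a-5p was the higher in 9 of 12, by a geometric mean of 1.27-fold (log2 ratio of miR-146b-5p to miR-146a-5p −0.34 ± 0.39, SD, n = 12, two-sided exact sign-flip permutation p = 0.0132). It was the higher in 3 of 6 controls (exact sign-flip p = 0.25) and in 6 of 6 EWH libraries (exact sign-flip p = 0.0312, the smallest that 6 libraries allow). With any 1 library left out the exact p over both groups ran from 0.00781 to 0.0264. This ratio also depends on how reads that fit both arms were assigned, which is not stated. How equally ligation and RT-PCR recovered the miR-146 arms was not measured, so a ratio of reads does not show which has more molecules. The highest miR-155-5p library, at 66.5 rpm, lay below the lowest library of either miR-146. A filter asking for 1 rpm or more in 6 or more of the 12 libraries, passed by 303 of 641 entries, kept the 3 5p arms and none of the 3p arms.

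**Figure D1:**
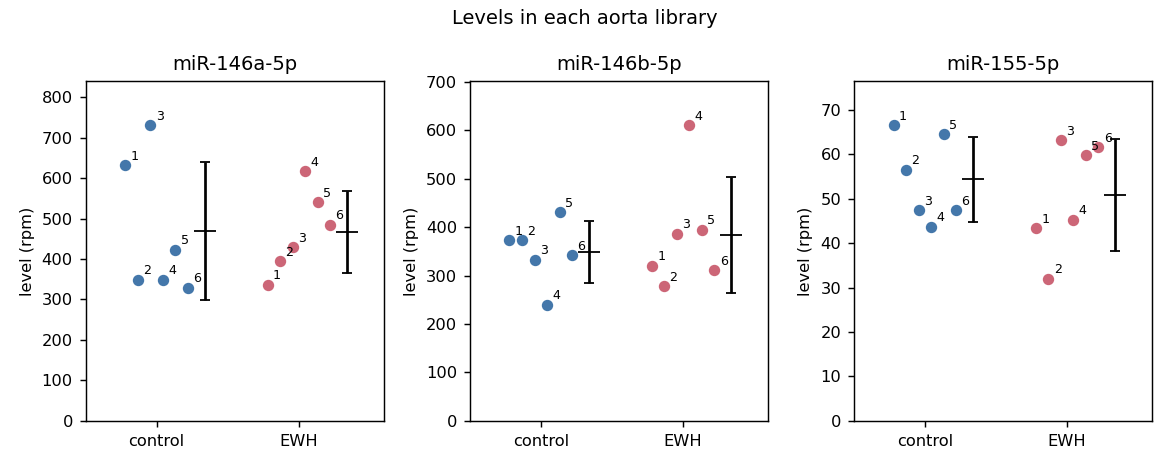
Level in rpm of the 3 5p arms in each of 12 aorta libraries (points, numbered by replicate, which have no order), with the mean and SD of each group as black bars (n = 6 each). The groups overlap in all 3 panels, and EWH 4 stands above the other EWH libraries in miR-146b-5p, at 610 rpm.

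No difference between EWH and control was detected for any of the 3 5p arms. Of the 3, limma on log2(rpm + 1) values called 0 at a Benjamini-Hochberg adjusted p under 0.05 over all tested miRNAs, against 0% of the 303 tested. At an unadjusted limma p under 0.05 the count was also 0 of 3, against 23.1% of the tested. Run on recovered whole reads, edgeR called 0 of the 3 against 13.2% of the tested, and DESeq2 0 against 20.8%. Groups did not overlap for 0 of the 3, against 1.65% of the tested.

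MiR-146a-5p, the one of the miR-146 pair with more reads, ranged in control from 329 to 730 rpm with a median of 386 rpm. In EWH it ranged from 336 to 617 rpm with a median of 457 rpm. Controls 1 and 3, at 632 and 730 rpm, lay above every EWH library, while the other 4 controls lay between 329 and 423 rpm, where 2 of the EWH libraries also lay. The control mean was 469 ± 170 rpm and the EWH mean 467 ± 102 rpm (SD, n = 6 each). The log2 fold change was 0.04 (SE 0.22, limma adjusted p = 0.932), a 1.03-fold difference with a 95% interval of 0.734 to 1.44. Its sign turns on the scale, the arithmetic mean being lower and the mean of logs higher in EWH. The difference turned to −0.03, −0.03 or −0.05 without control 2, 4 or 6, and to −0.05 or −0.01 without EWH 4 or 5.

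MiR-146b-5p ranged in control from 240 to 430 rpm with a median of 358 rpm, and in EWH from 277 to 610 rpm with a median of 353 rpm. The other 5 EWH libraries lay inside the control range, and EWH 4 lay above it. The control mean was 348 ± 63.2 rpm and the EWH mean 383 ± 120 rpm (SD, n = 6 each). The log2 fold change was 0.11 (SE 0.19, limma adjusted p = 0.758), a 1.08-fold difference with a 95% interval of 0.808 to 1.44. EWH 4 decided its direction. Without that library the EWH mean was 338 ± 50.5 rpm (SD, n = 5) and the log2 fold change −0.04, and without EWH 3 and 4 together it was −0.09.

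MiR-155-5p, the 5p arm with the fewest reads, ranged in control from 43.7 to 66.5 rpm with a median of 52.0 rpm. In EWH it ranged from 32.0 to 63.2 rpm with a median of 52.6 rpm. In EWH 1 and EWH 2, at 43.3 and 32.0 rpm, it lay below every control, and the other 4 EWH libraries lay within the control range. The control mean was 54.4 ± 9.64 rpm and the EWH mean 50.9 ± 12.6 rpm (SD, n = 6 each). The log2 fold change was −0.11 (SE 0.18, limma adjusted p = 0.734), a fold of 0.923 with a 95% interval of 0.699 to 1.22. Without EWH 2 it was 0.01, and without EWH 3 and 4 together it was −0.17.

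**Figure D2:**
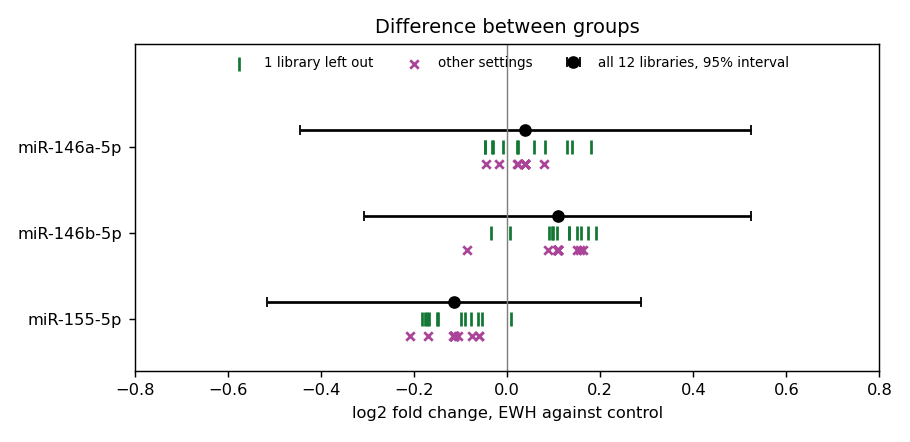
Log2 fold change of EWH against control on the log2(rpm + 1) scale for the 3 5p arms, with the limma estimate and its 95% interval from all 12 libraries (black), the estimates with 1 library left out (green bars) and those under other settings (crosses). Each interval spans 0, and each arm has at least 1 estimate on either side of 0.

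The spread between libraries was far above counting error. Reads per library ran from 8053 to 17747 for miR-146a-5p, from 5899 to 14813 for miR-146b-5p and from 793 to 1638 for miR-155-5p, so that counting alone gives a coefficient of variation of 0.937%, 1.06% and 2.79%. The measured coefficients of variation over the 12 libraries were 28.6%, 25.5% and 20.6%. The within-group SD of log2 values was 0.41 for miR-146a-5p, 0.35 for miR-146b-5p and 0.32 for miR-155-5p, beside a median of 0.33 over the 303 tested miRNAs.

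Each miR-146 gene had reads listed for its 5p arm, which carries the shared seed. The split between the genes depends on how reads that fit both were assigned. The 5p arms of miR-146a and miR-146b together came to 589 to 1063 rpm in control (median 787 rpm) and to 657 to 1227 rpm in EWH (median 805 rpm), and the ranges overlapped. MiR-146a-5p held 56.3% ± 8.57 of that sum in controls against 55.3% ± 4.45 with EWH (SD, n = 6 each). The ratio of miR-146b-5p to miR-146a-5p ran from 0.455 to 1.07 in control and from 0.641 to 0.989 in EWH. It was above 1 in 3 controls (2, 5 and 6) and in 0 EWH libraries, and lowest in control 3. The mean log2 ratio was −0.38 ± 0.51 in controls against −0.31 ± 0.26 with EWH (SD, n = 6 each). This difference of 0.07 did not pass an exact permutation test over every split of the libraries (two-sided p = 0.799). Without control 1 the difference was −0.01, and without control 3 it was −0.08.

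**Figure D3:**
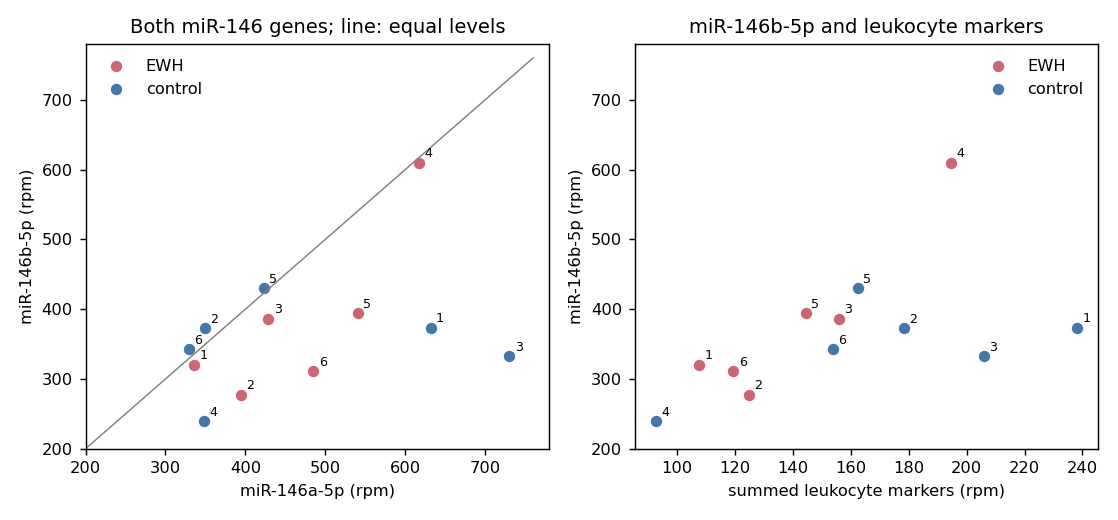
Left, miR-146b-5p against miR-146a-5p in rpm in each of 12 libraries (numbers are replicates), with a line of equal levels. Only controls 2, 5 and 6 lie above the line, and control 3 lies farthest below it. Right, miR-146b-5p against the summed rpm of the leukocyte markers, where EWH 4 is highest among EWH libraries on both axes and control 1 has the highest marker sum. The largest part of that sum is miR-150-5p, at a mean of 123 rpm. The correlations in the text use the mean log2 value of the tested markers instead, which is not drawn.

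The 3p arms, which are the passenger strands of these hairpins, were at or near the limit of detection. MiR-146a-3p had 0 to 9 reads in a control and 1 to 3 in an EWH library, with a total of 30 over the 12 libraries beside 136667 reads of the 5p arm. That is a 3p share of 0.0219% (exact binomial 95% interval 0.0148% to 0.0313%). MiR-146b-3p had 0 to 5 reads in a control and 0 to 2 in an EWH library, in total 16 and 4, with 0 reads in 4 libraries. A count of 0 allows up to 3 reads, or 0.121 to 0.126 rpm, in a library. Its 3p share was 0.0187% (exact binomial 95% interval 0.0114% to 0.0289%). MiR-155-3p had 1 to 14 reads in a control and 2 to 14 in an EWH library, 90 in total, a share of 0.582% (exact binomial 95% interval 0.468% to 0.715%). The pooled interval of miR-155 lay above those of both miR-146 hairpins. In single libraries the miR-155 share ran from 0.0929% to 1.19% in control and from 0.139% to 1.73% in EWH, and the groups overlapped. The lowest of these lay below the 0.107% of miR-146a in control 2.

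The 3p arms were left out of the filtered fit, since none passed the filter. In a fit with no filter on low values, the limma log2 fold changes were −0.06 for miR-146a-3p, −0.11 for miR-146b-3p and −0.08 for miR-155-3p, with Benjamini-Hochberg adjusted p of 0.670, 0.238 and 0.738. The miR-146b-3p value had an unadjusted limma p of 0.0325, with 16 reads in controls against 4 with EWH. Its size depended on the pseudocount, being −0.65 with 0.1 in place of 1. None of the 67 hairpins with both arms tested was miR-146a, miR-146b or miR-155, so their arm ratios were tested only with no filter on low values. In that limma fit of 222 hairpins the log2 ratio of 5p to 3p differed between EWH and control by 0.10 for miR-146a, 0.22 for miR-146b and −0.04 for miR-155, with Benjamini-Hochberg adjusted p of 0.857, 0.609 and 0.931, and 0 hairpins were called.

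**Figure D4:**
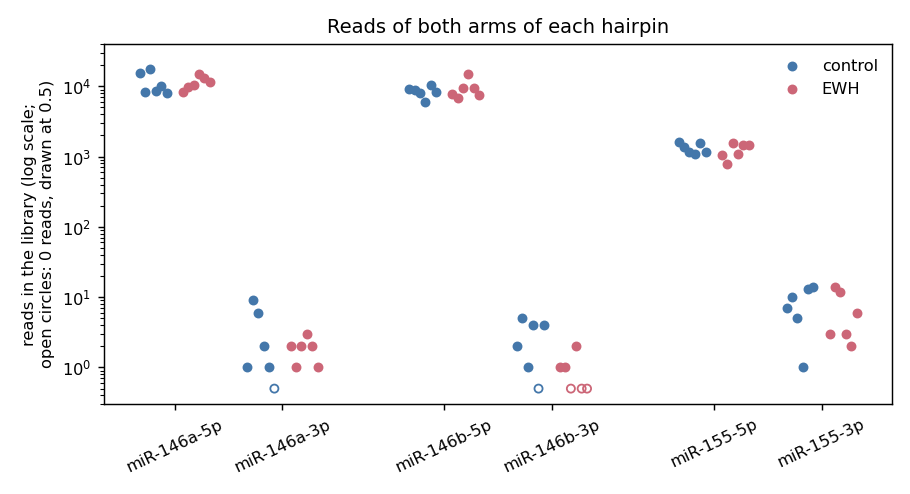
Reads of the 5p and the 3p arm of each hairpin in each of 12 libraries, on a log axis, with open circles for libraries with 0 reads. The 5p arms lie between 793 and 17747 reads and the 3p arms at 14 reads or fewer.

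Leukocytes are a known source of miR-155 and miR-146a, so markers of these cells were read beside the members. All 8 leukocyte marker arms were in the table and 7 were tested, miR-142-3p and miR-142-5p, miR-150-5p, miR-223-3p and miR-223-5p, and miR-342-3p and miR-342-5p. The sum of all 8 arms was 92.7 to 238 rpm in control and 108 to 195 rpm in EWH, and only miR-150-3p was at 0 in any library. Of the 7, limma called 0 after Benjamini-Hochberg adjustment and 0 at an unadjusted p under 0.05, beside 0% and 23.1% of all tested. EdgeR and DESeq2 also called 0 of the 7, beside 13.2% and 20.8% of all tested. In EWH 5 of the markers had lower and 2 higher mean logs, beside 182 lower and 121 higher over all tested. The median log2 fold change of the markers was −0.24 beside −0.06 over all tested. The part of leukocyte content in the members' levels was not tested beyond the correlations that follow. In a bulk sample fewer cells of a type and less RNA per cell cannot be told apart.

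Over the 12 libraries no relation among the members, or between a member and these markers, passed its test. Pearson's r of log2 values was 0.44 for miR-146a-5p with miR-146b-5p (Spearman's rho 0.41), 0.27 for miR-146a-5p with miR-155-5p (rho 0.48) and 0.37 for miR-146b-5p with miR-155-5p (rho 0.54). With the mean log2 value of the leukocyte markers r was 0.17 for miR-146a-5p (rho 0.27), 0.47 for miR-146b-5p (rho 0.46) and 0.32 for miR-155-5p (rho 0.20). For these 6 relations, permutation tests with 100000 resamples gave a raw p of r from 0.121 to 0.600 (Benjamini-Hochberg adjusted 0.457 to 0.600) and that of rho from 0.0738 to 0.54 (adjusted 0.267 to 0.54).

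Some of these relations changed when libraries were left out or groups were taken alone. Here p was adjusted over the 6 relations of each setting and not over all settings together. The adjusted p of 0.0333 below therefore do not allow for the number of settings tried. Without the 2 libraries farthest from the median of miR-146b-5p (control 4 and EWH 4), r with miR-155-5p was 0.79 (permutation p = 0.00555, adjusted p = 0.0333), while rho was 0.70 and did not pass (permutation adjusted p = 0.182). That r was 0.82 within control and 0.23 within EWH, and −0.08 under median-of-ratios scaling. The factors of that scaling ran from 0.802 in EWH 2 to 1.16 in EWH 4, with control 4 at 0.901. Within EWH the leukocyte marker mean had an r of 0.90 with miR-146b-5p (exact permutation p = 0.00556, adjusted p = 0.0333) and 0.88 with miR-146a-5p (exact permutation p = 0.0278, adjusted p = 0.0833). By rank neither passed, rho being 0.94 and 0.89 (exact permutation adjusted p = 0.1 for both). Within control r was 0.23 for miR-146b-5p and −0.16 for miR-146a-5p (exact permutation adjusted p = 0.945 for both), and the difference between the groups was not tested. EWH 4 was highest of the EWH libraries in both miR-146 5p arms and in the marker sum (195 rpm). The 2 libraries farthest from the median differed by member. For miR-146a-5p they were control 1 and control 3. Without these, its r was 0.67 with miR-146b-5p, 0.28 with miR-155-5p and 0.12 with the marker mean. Without control 4 and EWH 4 the r of miR-146b-5p with the marker mean was 0.40. For miR-155-5p they were control 1 and EWH 2, and its r with the marker mean was then 0.0045.

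Each 5p arm had a different set of miRNAs with the most similar pattern, taken as the 3 tested non-members with the highest Pearson's r over the 12 libraries. For miR-146a-5p these were miR-195-5p (r 0.85, rho 0.87), miR-503-3p (r 0.79, rho 0.69) and miR-322-3p (r 0.76, rho 0.64), each highest in control 1 and lowest in control 2. For miR-146b-5p they were miR-337-5p (r 0.86, rho 0.76), miR-3586-3p (r 0.85, rho 0.79) and miR-218a-5p (r 0.82, rho 0.67), each highest in EWH 4 and lowest in control 4. For miR-155-5p they were miR-191a-5p (r 0.87, rho 0.78), miR-16-5p (r 0.84, rho 0.73) and miR-103-3p (r 0.81, rho 0.83), each lowest in EWH 2. The median r over all tested miRNAs was 0.25, 0.30 and 0.19 for the 3 arms. MiR-195-5p kept an r of 0.91 with miR-146a-5p without the 2 libraries farthest from the miR-146a-5p median, and 0.80 within control and 0.96 within EWH. The r of miR-503-3p and miR-322-3p were then 0.65 and 0.66. Without control 4 and EWH 4, r with miR-146b-5p fell to 0.53 for miR-337-5p, 0.70 for miR-3586-3p and 0.49 for miR-218a-5p. MiR-337-5p was scarce, at 0.163 to 6.96 rpm. Without the 2 libraries farthest from the miR-155-5p median, r with miR-155-5p fell to 0.68, 0.61 and 0.62 in the order above. These r were picked as the highest of all, and values of a library share its total, so they are a description. The lowest r for both miR-146 arms was with miR-143-3p (−0.86 and −0.69), the smooth muscle miRNA that holds the largest share of reads.

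Other miRNAs of the same pathway were read from 2 lists, in which both arms of each listed hairpin were taken. Of those known to be induced by NF-kB or Toll-like receptor signalling, 11 of 16 arms were tested, 3 higher and 8 lower in EWH by mean log, and the median log2 fold change was −0.06. Over all tested miRNAs 121 were higher and 182 lower, and the median was −0.06. Limma called 0 of the 11 (3 at an unadjusted p under 0.05), edgeR 1 and DESeq2 2, beside 0%, 23.1%, 13.2% and 20.8% of all tested. MiR-9a-5p, induced in activated monocytes but abundant in neural cells, averaged 64.2 ± 21.8 rpm in controls against 250 ± 175 rpm with EWH (SD, n = 6 each, ranges 39.6 to 89.9 and 62.3 to 490 rpm, limma adjusted p = 0.128, edgeR adjusted p = 0.0308). Its sister arm miR-9a-3p had a log2 fold change of 1.02 (limma adjusted p = 0.168). The neuron and glia markers, miR-9a among them, summed to 82.6 to 206 rpm in control and 124 to 1139 rpm in EWH, EWH 4 and EWH 3 being highest, and their part in the miR-9a values was not tested. MiR-21-5p, raised in injured vessels, averaged 7380 ± 1503 rpm in controls against 5804 ± 836 rpm with EWH (SD, n = 6 each), a log2 fold change of −0.33 (limma adjusted p = 0.171).

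The second list held hairpins known to act on the NF-kB or Toll-like receptor pathway or on endothelial adhesion molecules. With both arms taken, not every arm on it is known for that role. Of its 28 arms 22 were tested, 6 higher and 16 lower in EWH by mean log, and their median log2 fold change was −0.13. Limma called 0 of the 22 (4 at an unadjusted p under 0.05), edgeR 2 and DESeq2 3, again beside 0%, 23.1%, 13.2% and 20.8% of all tested, of which 121 were higher and 182 lower. Let-7i-5p, known for repressing Toll-like receptor 4, averaged 22107 ± 1332 rpm in controls against 26224 ± 2028 rpm with EWH (SD, n = 6 each, log2 fold change 0.24, limma adjusted p = 0.128, edgeR adjusted p = 0.0308). MiR-17-5p, of a cluster linked to proliferation, ran from 4.90 to 41.4 rpm in controls and from 2.95 to 5.15 rpm with EWH, so that the groups overlapped (log2 fold change −1.29, limma adjusted p = 0.129, edgeR adjusted p = 0.0308). MiR-10a-5p, which lowers endothelial NF-kB activity, averaged 20062 ± 4515 rpm in controls against 22815 ± 3435 rpm with EWH (limma adjusted p = 0.468). MiR-31a-5p, directed at E-selectin, had a log2 fold change of −0.37. MiR-125b-1-3p, listed by its hairpin, had one of −0.30, and both had a limma adjusted p of 0.163. The edgeR calls of both lists together were miR-9a-5p, let-7i-5p and miR-17-5p, while the 3 members had edgeR adjusted p (Benjamini-Hochberg) of 0.962, 0.517 and 0.859.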

How the data were processed

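Trizol was used for RNA, and a gel band of 15 to 35 nt inserts was kept after adaptor ligation and RT-PCR, per the labels' protocols. The deposited table holds reads-per-million (RPM) values that the authors made from their own counts. The genome build was rn6 per the submitters' processing notes, and aligner, counting tool and miRNA annotation: not given in the sources used here. Dividing by the smallest step of a library gave whole reads for 100% of values (tolerance 0.01 read).

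Columns were mapped by sample description. For the 303 miRNAs that reached 1 rpm in 6 libraries or more, limma 3.58.1 with an intensity trend (R 4.3.3) compared log2(rpm + 1) between groups, p being adjusted by Benjamini-Hochberg and called under 0.05. Recovered reads were tested with edgeR 4.0.16 and DESeq2 1.42.0. The main limma fit, edgeR and DESeq2 were tried on simulated data, and the arm-ratio fit and the alternative limma fits were not. The levels of the miR-146 5p arms were compared within libraries by exact sign flips, a test added after their values were seen. Members, lists, tests and alternatives were chosen with earlier results of these data known. Named miRNAs were all members, the 3 most similar to each 5p arm, leukocyte markers, the top marker of each list, and from the pathway lists the 3 most abundant and the 3 highest and 3 lowest by moderated t. Replicates of a group differed by more than counting allows (chi-square over its degrees of freedom 119 to 3184 in 30 pairs). Figures used Python 3.11.15 and matplotlib 3.10.9.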

Additional observations from a re-analysis of the deposited data

Results flagged for a closer look

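Each member's level, its 3p share and the miR-146b-5p to miR-146a-5p ratio were examined in each group of 6 for a highest or lowest library far from the rest, 20 groups of values in all, of which chance alone picks out about 1 in 20. In 2 of them a library stood apart. MiR-146b-5p read 610 rpm in EWH 4, where the next EWH library read 394 rpm. The 3p share of miR-146a reads was 0.107% in control 2, from 9 reads, where the next control was at 0.0338%.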

How the results depend on the processing

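No 5p arm was called by limma, edgeR or DESeq2 in any of the 24 alternatives run for each (smallest Benjamini-Hochberg adjusted p 0.656 for miR-146a-5p, 0.517 for miR-146b-5p and 0.484 for miR-155-5p). Directions were less stable. With 1 library left out the log2 fold change ran from −0.048 to 0.18 for miR-146a-5p, from −0.035 to 0.19 for miR-146b-5p and from −0.18 to 0.0077 for miR-155-5p. MiR-146a-5p turned to −0.018 after quantile normalization and −0.045 without EWH 3 and 4 together, where miR-146b-5p turned to −0.087, and the cause was not tested. The log2 ratio of the miR-146 5p arms ran from −0.082 to 0.16 with 1 library left out and was −0.042 without EWH 3 and 4 together. With a pseudocount of 0.1 the 5p to 3p log2 ratio of miR-146b differed by 0.76 between groups, beside 0.22 with a pseudocount of 1. Over all tested miRNAs the count called was 0 by limma as reported, 8 after quantile normalization, 1 without EWH 3 and 4 together, 40 by edgeR, 63 by DESeq2, and 0 to 24 with 1 library left out (24 without EWH 2, 1 without EWH 4).

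Among the correlations, r of miR-146b-5p with miR-155-5p was 0.79 without its 2 farthest libraries and −0.082 under median-of-ratios scaling, and r of miR-146b-5p with the leukocyte marker mean was 0.90 within EWH. Neither passed by Spearman's rho. For miR-146a-5p with that mean r turned to −0.16 within control and −0.12 under median-of-ratios scaling, and for miR-155-5p to −0.023 within control and −0.025 under that scaling. The r of miR-146b-5p with the marker mean fell from 0.47 to 0.062 under that scaling. There r was 0.19 for miR-146a-5p with miR-146b-5p and 0.052 for miR-146a-5p with miR-155-5p, so these r depend on how libraries are scaled.

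Samples shared only a replicate number. Same-numbered libraries of the groups did not deviate together (correlations −0.50 to 0.31, with 0 of 6 closest to their own number). With the replicate number as a block the log2 fold changes were 0.04, 0.11 and −0.11 in the order above, with limma adjusted p of 0.952, 0.828 and 0.802, and the count called stayed at 0. The ratio of the miR-146 arms gave an exact sign-flip p of 0.844 under the block. Depth limits only the 3p arms, at 14 reads or fewer.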

Other observations

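One pathway arm below the filter was singled out after its values were seen. MiR-21-3p, the passenger strand of miR-21, read 0.411 to 1.61 rpm in control (10 to 39 reads) and 0.161 to 0.377 rpm in EWH (4 to 9 reads), so every EWH library lay below every control. Groups did not overlap for 1.65% of the 303 tested miRNAs, and that share was not counted among arms below the filter. In a limma fit with no filter on low values its log2 fold change was −0.60 (SE 0.14, Benjamini-Hochberg adjusted p = 0.206), and it did not pass the filter of the reported fit.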
